A study of Mus musculus with 12 samples.

Results

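Hivep1, Hivep2 and Hivep3 encode the mammalian HIVEP zinc finger proteins, and all 3 are described here out of the 55335 genes in the deposited count tables. They were taken as a family by gene symbol, and the family was chosen by the tumor values of Hivep1, which stood higher in every midostaurin-treated tumor with a very small spread. For that reason the tumor contrasts of all 3 genes are given below as descriptions with no test. RNA was sequenced in 12 libraries, 3 in each of 4 groups, all from CT26, a mouse colorectal cancer line labelled wild type. The treated tumors grew under the skin of mice that received midostaurin, a multikinase inhibitor, at 40 mg/kg from day 7 after inoculation for 2 weeks, and their controls received vehicle. The treated cells were cultured CT26 cells kept in 1 µM midostaurin for 48 h, and their controls received the solvent DMSO. A tumor library holds RNA of CT26 cells and of host cells together. Since no label ties a library to its own culture or mouse, p-values here measure only the spread between libraries, which may be technical.

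The HIVEP proteins, also called ZAS proteins or, after the related fly gene, Schnurri proteins, are very large nuclear proteins. They bind DNA through widely separated pairs of C2H2 zinc fingers. Their classical binding sites are kB-like sequences in enhancers, the same kind of site that NF-kB dimers bind, including enhancers of MHC class I genes. The Drosophila gene schnurri acts in the response to Dpp, a BMP ligand. HIVEP1 was described from its binding to an MHC class I enhancer and to an HIV enhancer, Hivep2 is known in mice for restraining NF-kB in T cells, and Hivep3 for binding the adaptor TRAF2 and for limiting bone formation through the transcription factor Runx2.

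On the mm10 assembly with GENCODE M21, Hivep1 (ENSMUSG00000021366) lies on the plus strand of chromosome 13 at 42052021 to 42192537. Hivep2 (ENSMUSG00000015501) lies on the plus strand of chromosome 10 at 13966075 to 14151374. Hivep3 (ENSMUSG00000028634) lies on the plus strand of chromosome 4 at 119733784 to 120138045. Their longest annotated coding transcripts measured 8753 bp for Hivep1, 9846 bp for Hivep2 and 11838 bp for Hivep3, with coding sequences of 8064, 7290 and 7044 bp. A search of each coding sequence for the codon pattern of a C2H2 finger found 4 fingers in 2 pairs in every member. The first pair is printed because it is the DNA-binding unit that defines the family, from coding exon sequence on the plus strand of mm10, with the matched cysteine and histidine codons in capitals. The Hivep1 stretch is chr13:42155510-42155662, the Hivep2 stretch chr10:14128230-14128382 and the Hivep3 stretch chr4:120095047-120095199.
Hivep1: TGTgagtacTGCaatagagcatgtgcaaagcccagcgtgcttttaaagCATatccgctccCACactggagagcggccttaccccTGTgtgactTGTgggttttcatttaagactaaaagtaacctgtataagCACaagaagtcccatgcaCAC
Hivep2: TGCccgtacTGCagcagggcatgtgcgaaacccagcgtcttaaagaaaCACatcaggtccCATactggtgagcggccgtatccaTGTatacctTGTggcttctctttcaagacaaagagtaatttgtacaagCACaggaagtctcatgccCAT
Hivep3: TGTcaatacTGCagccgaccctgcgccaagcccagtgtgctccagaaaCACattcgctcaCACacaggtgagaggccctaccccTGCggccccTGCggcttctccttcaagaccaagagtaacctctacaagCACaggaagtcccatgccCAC

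Over these 153 bases, Hivep1 was identical to Hivep2 at 74.5% of positions and to Hivep3 at 75.2%, and Hivep2 and Hivep3 were identical at 75.2%. The second pair was closer, at 79.1% between Hivep1 and Hivep2, 77.1% between Hivep1 and Hivep3 and 80.4% between Hivep2 and Hivep3. The longest exact run shared by any annotated transcripts of different members was 20 bases. Other genes overlap the members in the annotation. Hivep2 overlaps Gm26835 and Gm28289 on the opposite strand, and the strand setting of the counting is not given in the sources used here. Hivep3 overlaps AL607142.1 on its own strand, to which the deposited table assigns 1 count in 1 vehicle tumor and none in the other 11 libraries.

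Total counts ran from 33399701 to 48109497 in the tumors and from 34787389 to 38144039 in the cells. Levels are given in CPM, the usual depth-scaled read count, after scaling of library sizes by the trimmed mean of M values (TMM), and comparisons between genes as CPM per kb of annotated exons. The labelled origins were checked with marker genes. In cultured cells the summed T cell markers lay at 1.22 to 2.63 CPM with midostaurin and 1.28 to 3.47 CPM with DMSO, with Cd3e, Cd3d, Cd4 and Cd8a at 0 in all 6 libraries. The summed endothelial markers lay at no more than 0.655 CPM in any cell library. Some other lists were not as low in cells. Fibroblast markers summed to 782 to 1277 CPM with midostaurin and 783.2 to 1277 CPM with DMSO. In tumors they summed to 1325 to 1828 CPM with midostaurin and 1444 to 2264 CPM with vehicle. In cells, pericyte and smooth muscle markers summed to 17.9 to 43.6 CPM with midostaurin, and macrophage markers to 6.27 to 23.15 CPM. With DMSO these sums were 17.5 to 41.1 and 5.41 to 25.9 CPM. In tumors the summed macrophage markers stood at 503.7 to 1173 CPM with midostaurin and 1201 to 2191 CPM with vehicle. In bulk tumors, fewer cells of a type and less RNA per cell cannot be told apart.

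Hivep1 stood at 79.7, 78.8 and 76.8 CPM in midostaurin tumors 2, 3 and 4, against 44.9, 46.8 and 45.2 CPM in vehicle tumors 1, 2 and 3. The midostaurin tumors all lay above the vehicle tumors, and the gap between the groups was far wider than the range within either. The mean was 78.4 ± 1.5 CPM in midostaurin tumors and 45.6 ± 0.995 CPM in vehicle tumors (SD, n = 3 each). The fitted difference, midostaurin over vehicle, was 0.79 ± 0.07 on the log2 scale (SE), a 1.73-fold higher level. It lay between 0.77 and 0.81 when any 1 of the 6 tumors was left out. These are the values that chose the family.

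Hivep2 stood at 37.2, 49.0 and 31.1 CPM in midostaurin tumors 2, 3 and 4, against 21.5, 20.7 and 20.3 CPM in vehicle tumors 1, 2 and 3. Again the lowest midostaurin tumor lay above the highest vehicle tumor, but the midostaurin tumors were spread widely and tumor 3 was the highest. The fitted difference was 0.92 ± 0.16 on the log2 scale (SE), a 1.89-fold higher level. Without midostaurin tumor 3 the difference was 0.74. Across the other tumors left out it reached 1.06.

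Hivep3 stood at 1.53, 5.19 and 2.87 CPM in midostaurin tumors 2, 3 and 4, against 3.17, 2.57 and 1.92 CPM in vehicle tumors 1, 2 and 3. These are small counts, 60, 167 and 135 in the midostaurin tumors and 125, 95 and 83 in the vehicle tumors. The groups overlapped, and midostaurin tumors held both the lowest and the highest value. The fitted difference was 0.32 ± 0.45 on the log2 scale (SE), and it turned to -0.20 without midostaurin tumor 3 and was 0.65 without midostaurin tumor 2. In 2 of the 3 members, Hivep1 and Hivep2, every midostaurin tumor lay above every vehicle tumor, a pattern shown by 13.1% of the 16094 genes tested in tumors. Nothing is read from that count, since the tumor values chose the family.

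**Figure D1:**
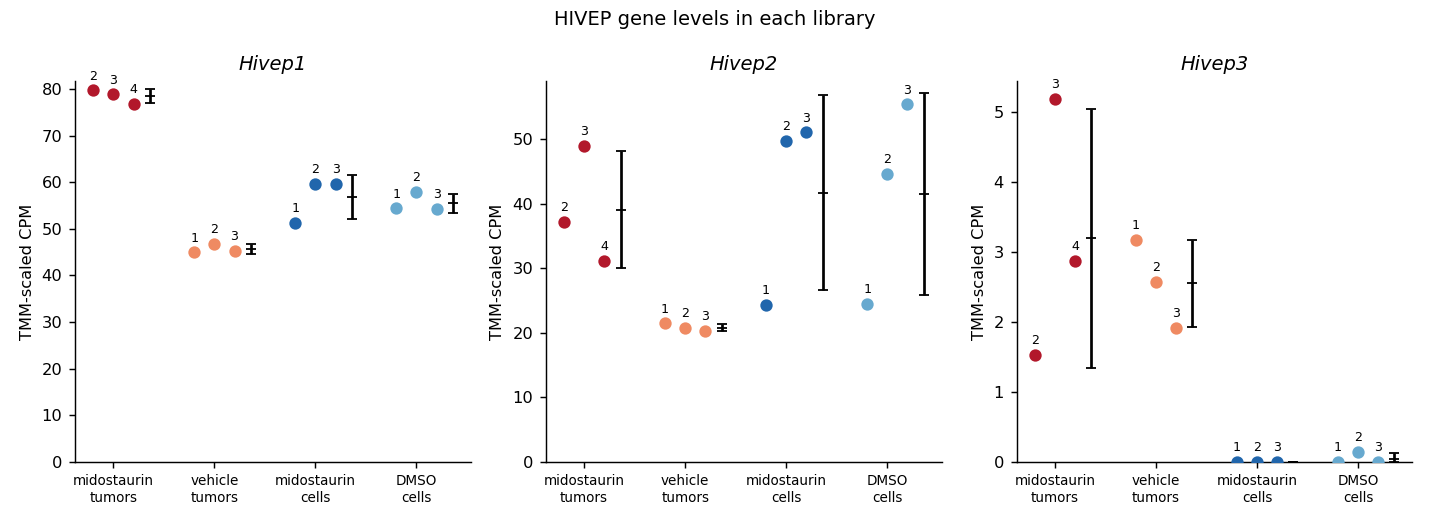
Level of each HIVEP gene in each library, in TMM-scaled CPM, with 1 point per library and a bar at the group mean ± SD (n = 3 per group). Hivep1 in midostaurin tumors (76.8 to 79.7 CPM) lies above every other library, Hivep2 is lowest in vehicle tumors, and Hivep3 is near 0 in cells.

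In cultured cells midostaurin left no difference in Hivep1 or Hivep2 beyond the spread between libraries. Hivep1 stood at 51.3, 59.6 and 59.6 CPM in midostaurin cells 1, 2 and 3, against 54.4, 57.9 and 54.3 CPM in DMSO cells 1, 2 and 3. The groups overlapped, and the difference of 0.03 ± 0.09 on the log2 scale (SE) did not pass edgeR's quasi-likelihood test with Benjamini-Hochberg adjustment (adjusted p = 1). Its 95% interval ran from -0.19 to 0.26. No gene of 14538 passed that test in cells (0%), where 75 had an unadjusted p under 0.05 (0.516%), and DESeq2 called 2 (0.0138%). With the replicate number as a block, edgeR called 8 genes (0.055%), none of them a HIVEP gene, and the difference in Hivep1 was 0.03 ± 0.05.

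Hivep2 stood at 24.3, 49.8 and 51.1 CPM in midostaurin cells 1, 2 and 3, against 24.5, 44.6 and 55.4 CPM in DMSO cells 1, 2 and 3. The libraries numbered 1 were low in both groups and the libraries numbered 2 and 3 were high in both. The number 1 library held 0.482 of the mean of numbers 2 and 3 with midostaurin and 0.490 of it with DMSO, while for Hivep1 these ratios were 0.861 with midostaurin and 0.970 with DMSO. The treatment difference for Hivep2 was 0.01 ± 0.40 on the log2 scale (SE), with a 95% interval from -0.96 to 0.97 and an adjusted p of 1 in edgeR's quasi-likelihood test. With the replicate number as a block it was 0.01 ± 0.06, with an interval from -0.12 to 0.14 and an adjusted p of 0.995.

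Hivep3 had no count in any midostaurin cell library and 5 counts in all in the DMSO cells, every one of them in library 2, so it was too low to be tested in cells. The 0 counts over the 3 midostaurin libraries allow a level of up to 0.0274 CPM (3 counts of the summed total). The 5 counts correspond to 0.0459 CPM over the 3 DMSO libraries, with an exact 95% Poisson interval of 0.0149 to 0.107 CPM. Intervals and floors of this kind cover counting error only, and they use total counts without TMM scaling. Set beside the response in cells, the tumor response was larger by 0.75 ± 0.11 on the log2 scale for Hivep1 and by 0.90 ± 0.46 for Hivep2 (SE of the interaction). These differences rest on the tumor values that chose the family and were not tested.

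**Figure D2:**
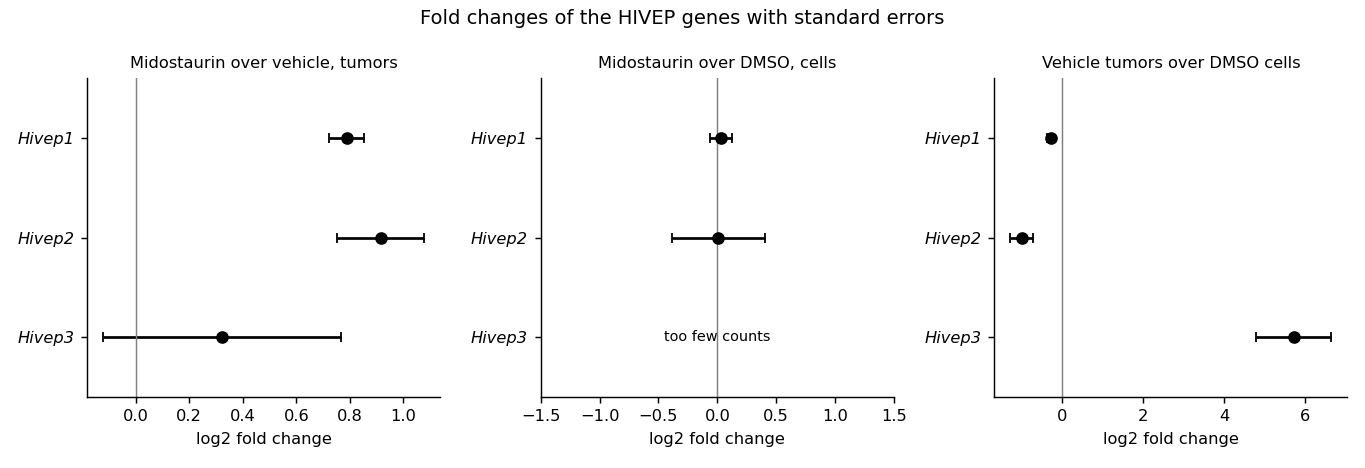
Fitted log2 fold change of each HIVEP gene for midostaurin over vehicle in tumors, midostaurin over DMSO in cells, and vehicle tumors over DMSO cells, with bars of 1 standard error. Hivep1 and Hivep2 sit at 0.79 and 0.92 in tumors and at 0.03 and 0.01 in cells, and Hivep3 sits at 5.72 between vehicle tumors and DMSO cells.

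Vehicle tumors and DMSO cells differed in Hivep3, and less firmly in Hivep2. Hivep2 averaged 20.8 ± 0.602 CPM in vehicle tumors and 41.5 ± 15.7 CPM in DMSO cells (SD, n = 3 each). Each vehicle tumor lay below each DMSO cell library, as in 25.5% of all genes tested, and the difference was -1.01 ± 0.28 on the log2 scale (SE, edgeR quasi-likelihood test, adjusted p = 0.0288). That call was lost when any 1 vehicle tumor was left out, or DMSO cell library 2 or 3, with adjusted p up to 0.0971, and it held without DMSO cell library 1, where the difference was -1.26 with an adjusted p of 0.000358. Between these groups edgeR called 6406 of 15899 genes (40.3%), of them 18.1% lower and 22.2% higher in vehicle tumors, so a call in either direction was common.

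Hivep3 summed to 303 counts in the vehicle tumors, against 5 counts in the DMSO cells. Without TMM scaling, the 303 counts correspond to 2.51 CPM, with an exact 95% Poisson interval of 2.23 to 2.80. It was higher in every vehicle tumor than in any DMSO cell library, as in 30.2% of all genes tested, with an adjusted p of 0.00401 in edgeR's quasi-likelihood test. The ratio of the CPM of the summed counts was 54.6, with a counting interval from 23.2 to 169. The fitted log2 difference of 5.72 ± 0.94 (SE) depends on the prior count, because 2 of the 3 DMSO libraries hold no Hivep3 count. Vehicle tumors also held endothelial and macrophage markers that were far lower in DMSO cells. The endothelial list summed to 60.1 to 119.3 CPM in vehicle tumors against 0.101 to 0.655 CPM in DMSO cells. The macrophage list summed to 1201 to 2191 CPM against 5.41 to 25.9 CPM. The part of such cells in the Hivep3 level was not tested.

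Hivep1 averaged 45.6 CPM in vehicle tumors and 55.5 ± 2.04 CPM in DMSO cells, a fitted difference of -0.29 ± 0.09 on the log2 scale (SE), given as a description because the vehicle tumors were part of the choice. The order of its levels was midostaurin tumors, midostaurin cells, DMSO cells and vehicle tumors, and the middle groups did not differ beyond their spread. For Hivep2 the vehicle tumors were lowest, and the midostaurin tumors at 39.1 ± 9.08 CPM lay within the range of both cell groups. For Hivep3 the tumor groups came first and overlapped each other.

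Per kb of exon, Hivep1 was the most abundant member in every library. It stood at 8.44 CPM per kb in midostaurin tumors, 4.91 in vehicle tumors, 6.11 in midostaurin cells and 5.97 in DMSO cells. Hivep2 followed at 2.85 CPM per kb in midostaurin tumors, 1.52 in vehicle tumors, 3.04 in midostaurin cells and 3.03 in DMSO cells. Hivep3 came last, at 0.181 CPM per kb in midostaurin tumors and 0.145 in vehicle tumors. Hivep1 made up 68.7% to 77.3% of the summed family level per kb over the 6 tumors and 59.1% to 76.6% over the 6 cell libraries, and its lowest share in tumors was in midostaurin tumor 3.

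The spread of the members between replicates differed as much as their levels. The coefficient of variation of Hivep1 was 1.91% in midostaurin tumors and 2.18% in vehicle tumors. The medians over genes of at least 5 CPM were 8.69% in midostaurin tumors and 9.33% in vehicle tumors. Among genes near the mean level of Hivep1 the medians were lower, 6.91% in midostaurin tumors and 8.44% in vehicle tumors. Counting error alone would give Hivep1 about 1.80% in midostaurin tumors and 2.35% in vehicle tumors. On CPM without TMM scaling the coefficient of Hivep1 was 1.41% in midostaurin tumors and 0.78% in vehicle tumors, so its size depended on the scaling. With TMM scaling, a smaller value was found in 4.11% of the genes of at least 5 CPM in midostaurin tumors and 4.15% in vehicle tumors. A coefficient no larger than that of Hivep1 in both groups was found in 32 of 11016 genes, a count that includes Hivep1 itself. Of the 32, 12 stood higher, Hivep1 included, and 12 lower in every midostaurin tumor than in every vehicle tumor. For Hivep2 the coefficient was 23.2% in midostaurin tumors and 2.89% in vehicle tumors, and for Hivep3 it was 58.0% in midostaurin tumors and 24.5% in vehicle tumors. In cells the coefficient of Hivep1 was 8.42% with midostaurin and 3.67% with DMSO, and that of Hivep2 was 36.2% with midostaurin and 37.8% with DMSO. These values are a description, since a small spread in tumors was part of the choice.

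**Figure D3:**
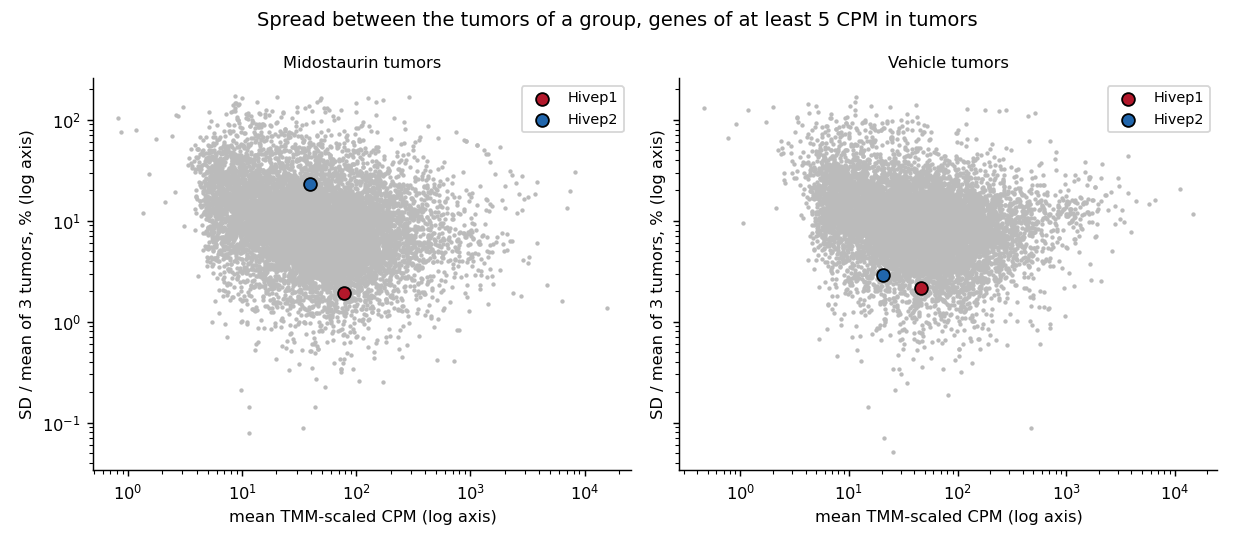
Coefficient of variation between the 3 libraries of a group against mean level in CPM (log axes), for midostaurin tumors (left) and vehicle tumors (right), with each gene of at least 5 CPM in tumors as a point and Hivep1 and Hivep2 marked (Hivep3 is below that level). Hivep1 sits low in the cloud in both groups (1.91% in midostaurin tumors and 2.18% in vehicle tumors), while Hivep2 lies at 23.2% in midostaurin tumors and 2.89% in vehicle tumors.

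Midostaurin tumor 3, which held the highest Hivep2 and Hivep3, also stood apart in inflammatory genes. The 18 listed NF-kB target genes summed to 1583, 4411 and 1443 CPM in midostaurin tumors 2, 3 and 4, against 1404, 1422 and 1384 CPM in vehicle tumors 1, 2 and 3. The neutrophil markers summed to 28.6, 660 and 17.6 CPM in midostaurin tumors 2, 3 and 4, against 26.3, 24.9 and 12.9 CPM in vehicle tumors 1, 2 and 3. Both sums were highest in midostaurin tumor 3, where Hivep1 at 78.8 CPM was the middle value of its group. Other libraries stood apart in other markers. Keratinocyte markers reached 750.2 CPM in vehicle tumor 2 and at most 1.79 CPM in every other tumor, and red cell markers reached 1279 CPM in vehicle tumor 1. The part of these markers in the HIVEP levels was not tested.

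The genes of the pathways around the HIVEP proteins were read in the same tumor comparison, in which edgeR called 7 of 16094 genes (0.0435%), 3205 had an unadjusted p under 0.05 (19.9%), and DESeq2 called 1447 (8.99%), of which 874 were higher (5.43%) and 573 lower (3.56%) in midostaurin tumors. Among NF-kB subunits, whose dimers bind kB sites, and the inhibitors and kinase subunits listed with them, 0 of 14 passed edgeR's test. Of these 14, 3 had an unadjusted p under 0.05 and DESeq2 called 1. In 13 of the 14 the fitted value was above 0, with a median of 0.50, against a median of -0.01 over all genes, of which 47.9% were above 0. Without midostaurin tumor 3 the list's median was 0.11. The subunit Rel had a fitted difference of 1.16 ± 0.51 (SE, adjusted p = 0.264 in edgeR), which was 0.27 without midostaurin tumor 3. The kinase subunit Chuk had 0.27 ± 0.07 (adjusted p = 0.121).

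Of the NF-kB target genes 17 of 18 were tested, 0 passed edgeR's test, 5 had an unadjusted p under 0.05 and DESeq2 called 2, Il1b and Ptgs2. The median was 0.60 with 16 above 0, and it was -0.09 with 7 above 0 without midostaurin tumor 3. Il1b, the interleukin-1 beta gene, averaged 147.4 ± 221.5 CPM in midostaurin tumors and 8.81 ± 4.18 CPM in vehicle tumors (SD, n = 3 each), a fitted difference of 4.06 ± 1.32 (SE), which was 1.17 without midostaurin tumor 3. The chemokine gene Cxcl1 had a fitted difference of 4.70 ± 1.78 (SE), which was -0.04 without midostaurin tumor 3. Ptgs2 had 1.72 ± 0.44 (SE, adjusted p = 0.119 in edgeR and 0.0216 in DESeq2). It stayed between 1.17 and 2.05 with any 1 tumor left out. Tnfaip2 had 0.47 ± 0.17 (SE, adjusted p = 0.191 in edgeR) and stayed between 0.32 and 0.59.

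Among TRAF adaptors and NF-kB feedback genes, 0 of 12 passed edgeR's test, 2 had an unadjusted p under 0.05 and DESeq2 called 0. The median was 0.24 with 11 above 0. Traf2, the adaptor that Hivep3 binds, averaged 53.9 ± 3.12 CPM in midostaurin tumors and 45.1 ± 2.05 CPM in vehicle tumors, a fitted difference of 0.26 ± 0.08 (SE, adjusted p = 0.15 in edgeR). HIVEP1 was described from its binding to an MHC class I enhancer, and a further list held 8 genes of MHC class I and its peptide loading. Of these 8, 0 passed edgeR's test, 3 had an unadjusted p under 0.05 and DESeq2 called 0. All 8 fitted values were above 0, with a median of 0.18. The same 8 genes were all called higher in vehicle tumors than in DMSO cells, where 22.2% of all genes were, with H2-K1 at 1124 ± 178.7 CPM in vehicle tumors and 227.7 ± 35.8 CPM in DMSO cells.

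In the BMP and SMAD pathway, through which the fly relative acts, 17 of 18 genes were tested in tumors and 0 passed edgeR's test. Of the 17, 8 had an unadjusted p under 0.05 and DESeq2 called 4 higher and 1 lower. In 8 of the 17 every midostaurin tumor lay above every vehicle tumor, next to 13.1% of all genes, and in 1 every midostaurin tumor lay below, next to 14.1%. The inhibitory Smad7 averaged 44.9 ± 2.94 CPM in midostaurin tumors and 26.8 ± 1.95 CPM in vehicle tumors, a fitted difference of 0.75 ± 0.09 (SE, adjusted p = 0.0654 in edgeR and 1.26e-08 in DESeq2). The ubiquitin ligase gene Smurf1 had 0.71 ± 0.13 (adjusted p = 0.085 in edgeR and 0.000172 in DESeq2) and the receptor gene Acvr1 0.47 ± 0.08 (adjusted p = 0.0841 in edgeR and 0.000168 in DESeq2). The other inhibitory SMAD gene, Smad6, was at 1.68 ± 0.265 CPM in midostaurin tumors and 4.36 ± 1.76 CPM in vehicle tumors, a fitted difference of -1.37 ± 0.33 (SE, adjusted p = 0.111 in edgeR and 0.0071 in DESeq2).

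Of 15 Hivep3 partners and bone genes 11 were tested in tumors, 0 passed edgeR's test, 3 had an unadjusted p under 0.05 and DESeq2 called 2 higher and 1 lower. The median of the list was -0.15, and it turned to 0.11 without vehicle tumor 1, 0.06 without vehicle tumor 3 and 0.0079 without midostaurin tumor 2. Runx2, whose protein Hivep3 restrains in bone, averaged 123.9 ± 10.0 CPM in midostaurin tumors and 69.0 ± 4.88 CPM in vehicle tumors. Its fitted difference was 0.85 ± 0.09 (SE, adjusted p = 0.0654 in edgeR and 1.12e-11 in DESeq2), and it stayed between 0.80 and 0.91 with any 1 tumor left out. Wwp1, the ubiquitin ligase that Hivep3 brings to Runx2, had -0.15 ± 0.11 (adjusted p = 0.492 in edgeR). Spp1, the osteopontin gene, had 1.00 ± 0.34 (adjusted p = 0.184 in edgeR and 0.0132 in DESeq2). Of 9 genes reported as HIVEP targets 5 were tested, 0 passed edgeR's test, 1 had an unadjusted p under 0.05, and DESeq2 called Cebpa lower, at 7.65 ± 2.56 CPM in midostaurin tumors and 15.9 ± 1.5 CPM in vehicle tumors. Cebpa was at 0.0172 CPM in midostaurin cells and 0.0665 CPM in DMSO cells, and all 8 macrophage markers had fitted values below 0 in the same tumor comparison, with a median of -0.84. Of the 8, 0 passed edgeR's test, 2 had an unadjusted p under 0.05 and DESeq2 called 1 lower. The part of macrophages in the Cebpa level was not tested. Of 9 genes that mark RNA quality and stress 0 passed edgeR's test and DESeq2 called 2 higher, Egr1 and Neat1, and 1 lower, Fos. In cells, no gene of any of these 8 lists passed edgeR's test.

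**Figure D4:**
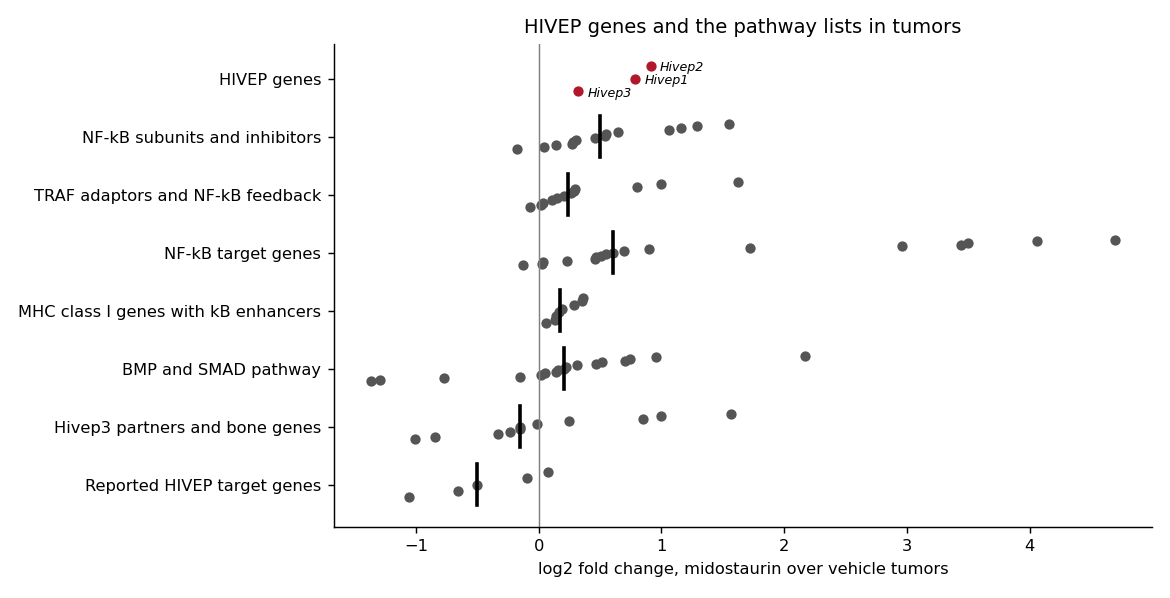
Fitted log2 fold change of midostaurin over vehicle tumors for each tested gene of the pathway lists (1 point per gene, bar at the list's median), beside the HIVEP genes. NF-kB target genes have a median of 0.60, BMP and SMAD genes 0.20, and Hivep1 and Hivep2 sit at 0.79 and 0.92.

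The members lie among genes with long transcripts, and long transcripts stood higher in the midostaurin tumors than short ones. All 3 have a longest transcript over 8 kb. The 741 tested genes of that length had a median fitted difference of 0.08 on the log2 scale, and in 24.0% of them every midostaurin tumor lay above every vehicle tumor. The 4828 genes of up to 2 kb had a median of -0.06 and a share of 7.5%. The part of transcript length in the differences of Hivep1 and Hivep2 was not tested.

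**Figure D5:**
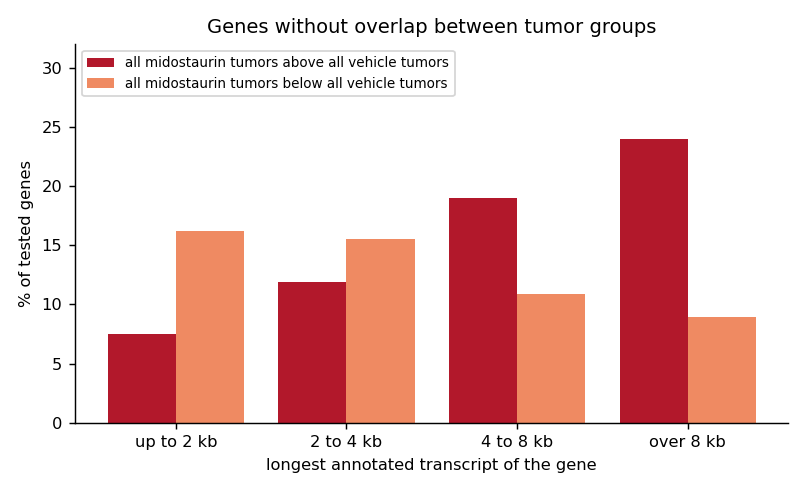
Share of tested genes, in percent, in which every midostaurin tumor lay above (dark bars) or below (light bars) every vehicle tumor, by length of the longest annotated transcript. The share above is 7.5% up to 2 kb and 24.0% over 8 kb, the class that holds all 3 HIVEP genes, and the share below is 16.2% up to 2 kb and 8.91% over 8 kb.

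The annotated neighbours were read for their values in the same comparison. Of the 18 nearest protein-coding genes, 3 on each side of each member, 12 were tested in tumors and 0 passed edgeR's test, while DESeq2 called 5, all higher. In 7 of the 12 every midostaurin tumor lay above every vehicle tumor, next to 13.1% of all genes. Beside Hivep1, the scaffold gene Nedd9 had a fitted difference of 0.77 ± 0.15 (SE, adjusted p = 0.085 in edgeR) and Tmem170b 0.47 ± 0.10 (adjusted p = 0.0965). Phactr1 had 0.82 ± 0.30 (adjusted p = 0.201), Edn1, the endothelin gene next after Hivep1, 0.11 ± 0.57 (adjusted p = 0.937) and Tbc1d7 -0.03 (adjusted p = 0.944). Without 1 tumor, Phactr1 reached 1.25 (vehicle tumor 2), and Edn1 turned to -0.37 (midostaurin tumor 2). Beside Hivep2, Aig1 had 0.52 ± 0.10 (adjusted p = 0.0874) and Vta1 0.40 ± 0.10 (adjusted p = 0.115), Pex3 had 0.32 ± 0.12 (adjusted p = 0.209) and Adat2 0.19 (adjusted p = 0.525). Adgrg6, the nearest gene after Hivep2, had -0.72 ± 0.51 (adjusted p = 0.48) at 0.404 CPM in midostaurin tumors and 0.673 CPM in vehicle tumors, and it was -0.18 without vehicle tumor 1. Beside Hivep3, Foxj3 had 0.38 ± 0.10 (adjusted p = 0.119) and Scmh1 0.08 (adjusted p = 0.769). The other 6 neighbours, Adtrp, Nmbr, Guca2a, Guca2b, Edn2 and Foxo6, were too low to be tested.

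The 300-base windows around the RefSeq starts on GRCm38.p6, from 250 bases before to 50 after, differed between the members. Their GC content was 87.0% for Hivep1, 75.3% for Hivep2 and 44.3% for Hivep3, against a median of 52.7% over 32851 such windows. The Hivep3 window lies inside the gene as GENCODE annotates it, well after its annotated start, and all 300 of its bases fall in a GENCODE exon, while 50 bases of the Hivep1 window and 142 of the Hivep2 window do. The Hivep2 window, from 13966129 to 13966428, also lies inside its gene, which starts at 13966075 in GENCODE. Only the Hivep1 window, from 42051771 to 42052070, spans the GENCODE start of its gene, at 42052021. The Hivep1 window held 48 CpG dinucleotides, that of Hivep2 35 and that of Hivep3 11, against a median of 7. A kB-like motif, GGG and TTTCC with any 2 bases between them, was searched on both strands. It was in the Hivep2 window, not in the other 2, and in 1.63% of all windows. Its classical form, with AC between them, was in none of the 3 windows and in 0.155% of all. A looser form, GGG and CC with any 5 bases between them, was in the Hivep1 and Hivep2 windows and in 50.8% of all. The motifs were picked after the windows had been read. The Hivep2 match lies after the GENCODE start of its gene. The match is printed because it is the kind of site that the family is known to bind, with the motif in capitals, from the plus strand at chr10:13966148-13966177.
Hivep2: agggcaccggGGGGCTTTCCtcccctcctc

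Genes whose pattern over the 12 libraries was most like a member's were found by the root mean square difference of centred log2(CPM + 0.5) values, among genes with a mean of at least 5 CPM. For Hivep1 these were Lnx2 at 0.109, Ago2 at 0.118, Gpkow at 0.123, Dip2c at 0.126 and Tollip at 0.135, against a median of 0.41 over 10067 genes. Lnx2 averaged 32.9 CPM in midostaurin tumors, 20.2 in vehicle tumors, 23.5 in midostaurin cells and 22.8 in DMSO cells, the same order of groups as Hivep1. For Hivep2 they were Stom at 0.173, Ap3s1 at 0.180, Atg7 at 0.210, Alas1 at 0.211 and Tmem87b at 0.212, against a median of 0.602, and 3 of these 5 remained when cell library 1 of either group was left out. For Hivep3 they were Il4ra at 0.299, Ecscr at 0.303, Ptprj at 0.305, H2-Q7 at 0.308 and Birc3 at 0.329, against a median of 1.4. Hivep3 was near 0 in cells, so the added 0.5 CPM set its values there and narrowed its gap to tumors. Its ratio of vehicle tumors to DMSO cells was 54.6 on summed counts, while Il4ra averaged 87.5 CPM against 11.5 CPM. The Hivep3 list thus depends on the added value.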

How the data were processed

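Poly(A)-selected, directional libraries were made with a NEBNext kit from TRIzol RNA, per the labels' protocols. The authors deposited a count for each gene as a whole number. Per the submitters' processing notes, these came from RSEM, of no stated version, and Bowtie2 2.3.4 on mm10, with FastQC 0.11.2. Whether estimated counts were rounded before deposit is not given in the sources used here. Column numbers of the treated tumors were 2, 3 and 4, while the labels number them 1 to 3. The column numbered 4 was assigned by its group name.

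The HIVEP genes and all gene lists were chosen with earlier results of these data known. Genes were filtered with filterByExpr, scaled by TMM and tested with edgeR 4.0.16 (quasi-likelihood F-test, glmQLFTest, R 4.3.3), with Benjamini-Hochberg adjustment over all genes tested and a threshold of 0.05. The genes tested numbered 16094 in tumors, 14538 in cells, 15899 between vehicle tumors and DMSO cells, and 16965 for the interaction. Levels are CPM with 1 TMM scaling over the 12 libraries, except where CPM without TMM scaling is named. The CPM of summed Hivep3 counts, with their intervals, floors and ratio, use total counts without TMM scaling. Symbols matched 99.7% of identifiers, leaving 181 without one. Text names the members, up to 4 genes of each list with the smallest p in tumors, the 5 most alike in pattern, and the 3 nearest protein-coding genes on each side. Where the text names H2-K1, it was chosen after its values were seen. The edgeR procedure was tested on simulated data.

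Same-numbered cell libraries deviated together (correlations 0.903, 0.721 and 0.704). Numbers 2 and 3 also deviated together across the groups (0.529 and 0.548), while number 1 ran against both (-0.76 to -0.743). The numbers were taken to pair the cell libraries, which rests on the data and not on a label, and less firmly for numbers 2 and 3. Alternatives were DESeq2 1.42.0, no filter, other scalings, the replicate block and leaving out each library. Same-group libraries differed beyond sampling noise, so none was counted as a repeat.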

Additional observations from a re-analysis of the deposited data

How the results depend on the processing

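The count of genes called between midostaurin and vehicle tumors was 7 with edgeR, 1447 with DESeq2, 0 without the low-count filter, 0 with the replicate block and 0 to 1 with 1 tumor left out. In tumors the block fits vehicle tumor 1 and midostaurin tumor 4 each on its own, because their numbers are not shared. Those tumors then do not inform the treatment difference. In cells it was 0 with edgeR, 2 with DESeq2 and 8 with the replicate block. For the interaction it was 1 with edgeR, 99 with DESeq2, 16 with the replicate block and 1 to 6 with 1 library left out. Between vehicle tumors and DMSO cells it was 4554 to 8845 with 1 library left out.

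The lower level of Hivep2 in vehicle tumors than in DMSO cells was -0.99 (adjusted p = 0.0554) without the filter, -0.93 (adjusted p = 0.0569) with the replicate block and -1.26 to -0.72 with 1 library left out. The differences in cells lay on both sides of 0 with 1 library left out, from -0.0017 to 0.10 for Hivep1 and from -0.26 to 0.28 for Hivep2. The tumor difference of Hivep3 lay between -0.20 and 0.65. With 1 library left out, the Hivep1 tumor difference stayed at 0.77 to 0.81 and that of Hivep2 at 0.74 to 1.06. The fitted Hivep3 difference between vehicle tumors and DMSO cells lay between 5.14 and 9.63. The cause of each change was not tested.

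With the replicate block, which rests on the tumors with shared numbers alone, S100a4 turned to 0.063 and Tbc1d7 to 0.14 in tumors. With 1 tumor left out, differences on both sides of 0 were found for S100a4 (-0.21 to 0.013), Tbc1d7 (-0.23 to 0.098), Edn1 (-0.37 to 0.41), Cxcl1 (-0.041 to 5.26) and Scmh1 (-0.0025 to 0.21). The numbers of the tumors did not pair them, with correlations of 0.153 and -0.186 for the 2 shared numbers, nor did those of vehicle tumors and DMSO cells, at 0.0428, -0.0574 and 0.0657. The block changed no other call of the HIVEP genes. Hivep3 in tumors rests on at most 167 counts a library.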
